A study of Mus musculus with 24 samples.

Results

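The Id genes Id1, Id2, Id3 and Id4 encode the inhibitors of DNA binding, and they were followed through 2 days in the SCN. The SCN, or suprachiasmatic nucleus, is the part of the hypothalamus that keeps daily time in mammals. The members were chosen by gene symbol. All 4 had 1 probe set each and passed the filter on dim genes, among 19938 genes with a single symbol, of which 13956 were tested. The study was a time series without replicates: 24 arrays, 1 every 2 h, each carrying SCN RNA pooled in equal parts from 3 C57/BL6 mice. The mice had lived in alternating 12 h of light and of darkness and were then moved to constant darkness, so the clock ran free in every group. The second cycle, circadian time (CT) 42 to CT 64, and the first cycle, CT 18 to CT 40, hold 12 arrays each and cover the same 12 circadian times. No treatment or genotype was compared, the age and sex of the mice were not given, and a pool shows no spread between animals.

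Id proteins have a helix-loop-helix domain but no basic region that could touch DNA. They pair with the ubiquitous E proteins, and so keep them and their tissue-specific bHLH partners off the E-box sequences of target genes. Id genes are known as targets of BMP signalling through SMAD proteins, and in the brain they are found in glial, vascular and progenitor cells as well as in some neurons. Mice without Id2 are known to reset their daily activity faster after a shift of the light cycle, and Id proteins can bind CLOCK and its partner ARNTL in vitro.

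Levels are deposited log2 intensities, and each gene's course is read only against itself. A probe set's level does not rank one Id gene above another. An amplitude is the height of a fitted 24-h cosine above its mean, in log2 units, a peak time is given in circadian hours from 0 to 24, and ± is the standard error of the fit over 24 arrays unless an SD is named. A gene was called where its p adjusted over all 13956 genes was under 0.05. Array medians were close (6.24 to 6.35). On 3 arrays (CT 40, CT 62 and CT 64) the signal stood apart, with narrow interquartile ranges (2.48 to 2.67, against 2.72 to 2.90 on the other arrays) and with the highest readings for 1194 olfactory and vomeronasal receptors, whose mean there was 0.16 to 0.34 above that of the series. That mean is called the array background here. All 14 SCN neuron markers passed the filter. So did 9 of the 10 measured markers of neighbouring hypothalamic neurons, so passing it does not set the SCN apart from its neighbours. The mean over 7 anterior pituitary genes ran from 5.55 to 6.44 in the second cycle and from 5.76 to 8.27 in the first, and its Pearson correlations with the Id genes over the 24 arrays were between -0.09 and 0.31.

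The first question was which Id genes follow a 24-h rhythm in darkness. Id2 was called, with a peak early in the subjective day, at 1.39 ± 0.68 h. Id1, Id3 and Id4 were not called, and their fitted peaks lay on the other side of the day, between 13.8 and 15.8 h. In all 1 of 4 members was called, against 7.65% of all genes tested (limma moderated F test).

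Id2 ranged in the second cycle from 8.14 at CT 62 to 8.91 at CT 46 with a median of 8.66, and in the first cycle from 7.94 at CT 40 to 8.91 at CT 24 with a median of 8.79. Its lowest array in either cycle was one of the 3 that stood apart. The 10 arrays at circadian times 22 to 6 h all lay between 8.70 and 8.91. The 6 arrays at 12 to 16 h lay between 7.94 and 8.57, so these 2 windows did not overlap. Both windows were picked after the values were seen, and how many other genes separate in this way was not counted. Of the 6 arrays at 12 to 16 h, the 3 other than CT 40, CT 62 and CT 64 lay between 8.32 and 8.57. The fitted amplitude was 0.27 ± 0.05, a 1.45-fold change from trough to peak (limma adjusted p = 0.00347). In all, 82 genes were called with an amplitude at least as large, Id2 included. The peak lies where called genes were most common: of the 1067 called genes, 57.2% had peak times of 0 to 6 h and 20.3% of 12 to 18 h.

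The level of Id2 moved with the array background (r = -0.80 over 24 arrays, and -0.52 over the 21 without CT 40, CT 62 and CT 64). Without those 3 arrays Id2 was still called at a fitted amplitude of 0.20, peaking at 0.662 h (limma adjusted p = 0.00442). Near the trough of Id2 that fit has only CT 38 at circadian time 14 h and no array at 16 h. With the array background as a covariate Id2 was not called (amplitude 0.16, peak 1.305 h, adjusted p = 0.0584). The 3 arrays with the highest background lay at circadian times 14 and 16 h, near the fitted trough of Id2. Background and time of day thus cannot be told apart on these arrays. Nor was Id2 called when the 12 circadian times were fitted as separate levels instead of a cosine (limma adjusted p = 0.101). That test called 99 genes in all.

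**Figure D1:**
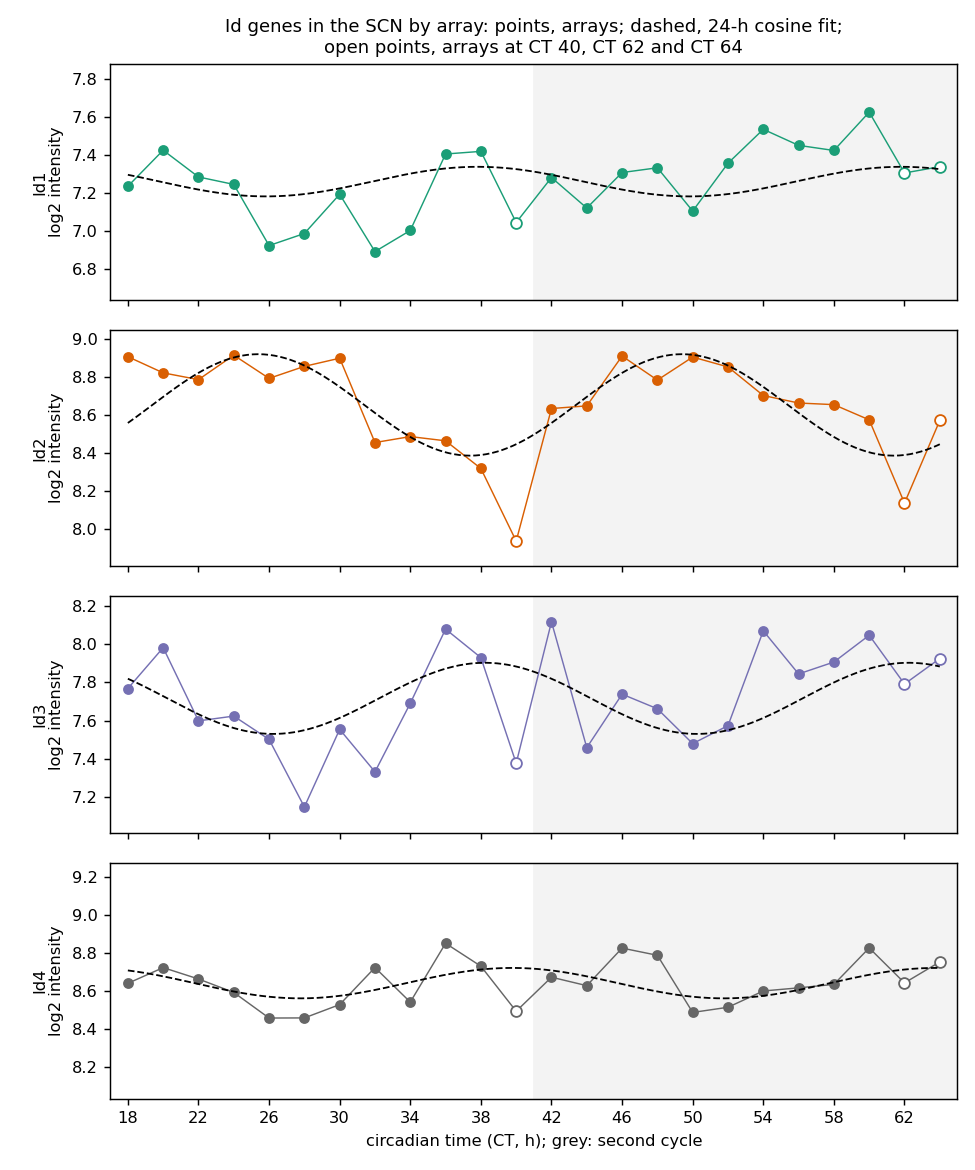
Log2 intensity of each Id gene (y axis, 1 panel a gene, equal span) against circadian time in h (x axis); points are arrays, the dashed line is the 24-h cosine fit, open points are the 3 arrays that stood apart, and grey marks the second cycle. Id2 is high from CT 18 to CT 30 and from CT 46 to CT 52, and its lowest points are CT 40 and CT 62, while Id3 and Id1 share many of their rises and dips.

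The fitted course of Id3 was opposite in phase to that of Id2, but Id3 did not pass on all arrays. In the second cycle it ranged from 7.46 at CT 44 to 8.12 at CT 42 with a median of 7.82, and in the first from 7.15 at CT 28 to 8.08 at CT 36 with a median of 7.61. Neighbouring arrays 2 h apart thus held the lowest and the highest value of the second cycle. The fitted amplitude was 0.19 ± 0.06, peaking at 14.2 ± 1.26 h (limma unadjusted p = 0.0184, adjusted p = 0.108). At circadian time 16 h the array of the second cycle, CT 64, read 7.93, against 7.38 on that of the first, CT 40. Without CT 40 Id3 was called at an amplitude of 0.23, peaking at 14.6 h (adjusted p = 0.0298). It was also called without CT 40, CT 62 and CT 64 (0.26, limma adjusted p = 0.0448). That fit has no array at circadian time 16 h and only CT 38 at 14 h, near its peak. Id3 was called as well when the array background entered as a covariate (0.30, adjusted p = 0.0122), the fit that ended the call of Id2. There too background and time of day cannot be told apart.

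Id4 had the smallest spread of the 4 over all arrays, from 8.46 to 8.85. Both arrays at circadian time 12 h were high, at 8.83 in the second cycle and 8.85 in the first, and both arrays at 2 h were low, at 8.49 in the second cycle and 8.46 in the first. Its fitted amplitude was 0.08 ± 0.03, peaking at 15.8 ± 1.55 h (limma adjusted p = 0.208). It was called after quantile normalisation (0.12, adjusted p = 0.0225) and with the mean of astrocyte markers as a covariate (0.10, adjusted p = 0.0306). With the array background covariate the amplitude was 0.12 (adjusted p = 0.0638).

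Id1 ranged from 7.11 at CT 50 to 7.63 at CT 60 with a median of 7.34 in the second cycle, and from 6.89 at CT 32 to 7.43 at CT 20 with a median of 7.22 in the first. Its amplitude of 0.08 ± 0.05, with a fitted peak at 13.8 ± 2.52 h, was close to the median of 0.07 over all genes tested (limma adjusted p = 0.517), and it was called in none of the fits run. With the array background covariate its amplitude was 0.14 ± 0.06 (adjusted p = 0.279).

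By circadian time, with 2 arrays each, Id2 was highest at 4 h (mean 8.85) and lowest at 14 h (8.23). The SD between the 2 arrays of a time was 0.17 for Id2. Of its 11 steps between neighbours in the order of the 12 times, only 1 exceeded that SD. It was the step of 0.26 from 12 h (8.52) down to 16 h (8.25). Both arrays at 16 h were among those that stood apart, CT 40 at 7.94 and CT 64 at 8.57. The value at CT 64 lies above the mean at 12 h, so this step rests on CT 40 alone. The mean at 14 h also includes an array that stood apart, CT 62 (8.14), beside CT 38 (8.32). The times 4, 0, 2 and 22 h, at 8.85 each, could not be ordered. Id1, Id3 and Id4 were all highest at 12 h, with means of 7.52, 8.06 and 8.84. Id1 and Id4 were lowest at 2 h (7.02 and 8.47) and Id3 at 4 h (7.36). No step of Id1 or Id3 exceeded their SDs of 0.21 and 0.25. For Id4 the step from 12 h down to 22 h, 0.09, was just above its SD of 0.09 (0.0941 against 0.0863).

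The next question was whether the Id genes differ in rhythm. For each of the 6 pairs the 2 log2 values of the same array were subtracted and the 24-h cosine was fitted to the difference, with 100000 permutations of the 24 times and adjustment over the 6 pairs. Id2 differed from each of the others. The difference Id2 minus Id3 had a fitted amplitude of 0.45 ± 0.06, largest at 1.74 h (permutation p = 1e-05, the smallest possible, adjusted p = 3e-05). Id2 minus Id4 reached 0.33 ± 0.05, largest at 1.93 h (adjusted p = 3e-05), and Id2 minus Id1 reached 0.34 ± 0.06, largest at 1.49 h (permutation p = 7e-05, adjusted p = 0.00014). Because the pairs were set with the rhythm of Id2 known, these p-values describe the difference and are not independent evidence that Id2 is rhythmic.

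The array background covariate did not end these 3 calls. The amplitudes were 0.46, 0.28 and 0.30 for Id2 minus Id3, Id4 and Id1 (permutation adjusted p = 6e-05, 0.00015 and 0.00036). Without CT 40, CT 62 and CT 64 they were 0.44, 0.29 and 0.30 (adjusted p = 0.00042, 0.00042 and 0.00134). These p-values were adjusted over the pairs only. Id2 alone, not called with that covariate, was adjusted over all genes tested (limma unadjusted p = 0.00259), so its lost call cannot be set against these. That covariate took the amplitude of Id2 alone from 0.27 to 0.16 and that of Id3 from 0.19 to 0.30. The pairs were not fitted with circadian time as a factor. Among the other 3 genes no pair passed on all arrays. Id3 minus Id1 reached 0.11 ± 0.04, largest at 14.5 h (permutation p = 0.0370, adjusted p = 0.0555), Id3 minus Id4 had 0.12 ± 0.06 (adjusted p = 0.195) and Id4 minus Id1 0.04 ± 0.05 (adjusted p = 0.716). Id3 minus Id1 did pass without CT 40, CT 62 and CT 64 (0.14, adjusted p = 0.0130) and under the array background covariate (0.16, adjusted p = 0.00163), where Id3 minus Id4 passed as well (0.18, adjusted p = 0.0212). Id3 minus Id1 also passed when CT 26 (0.13), CT 40 (0.13), CT 54 (0.12) or CT 60 (0.12) alone was left out.

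**Figure D2:**
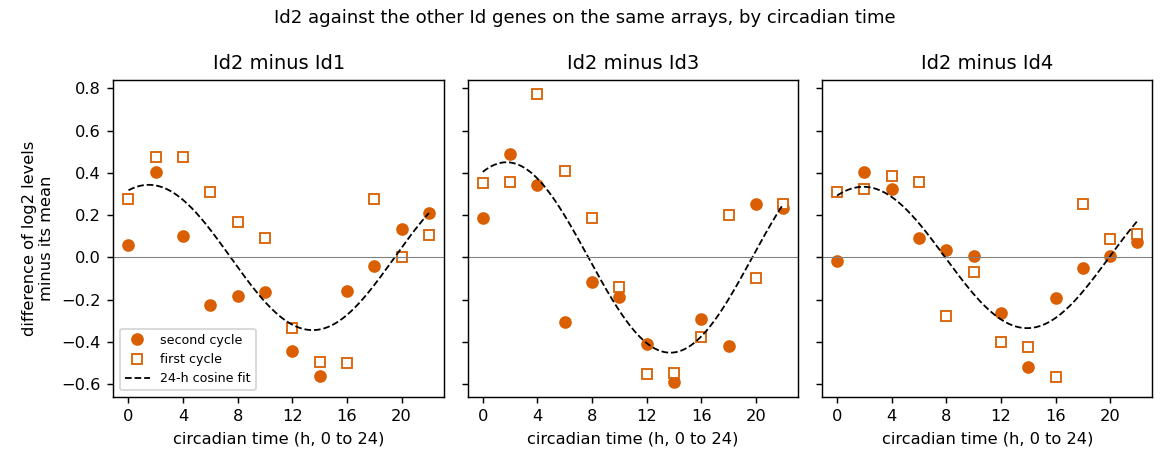
Difference between the log2 level of Id2 and that of Id1, Id3 or Id4 on the same array, minus its mean (y axis), against circadian time from 0 to 24 h (x axis); filled circles are second-cycle arrays, open squares first-cycle arrays, and the dashed line is the 24-h cosine fit. At 12 and 14 h all 4 arrays lie below 0 in each panel, and at 2 and 4 h all 4 lie above 0.

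**Figure D3:**
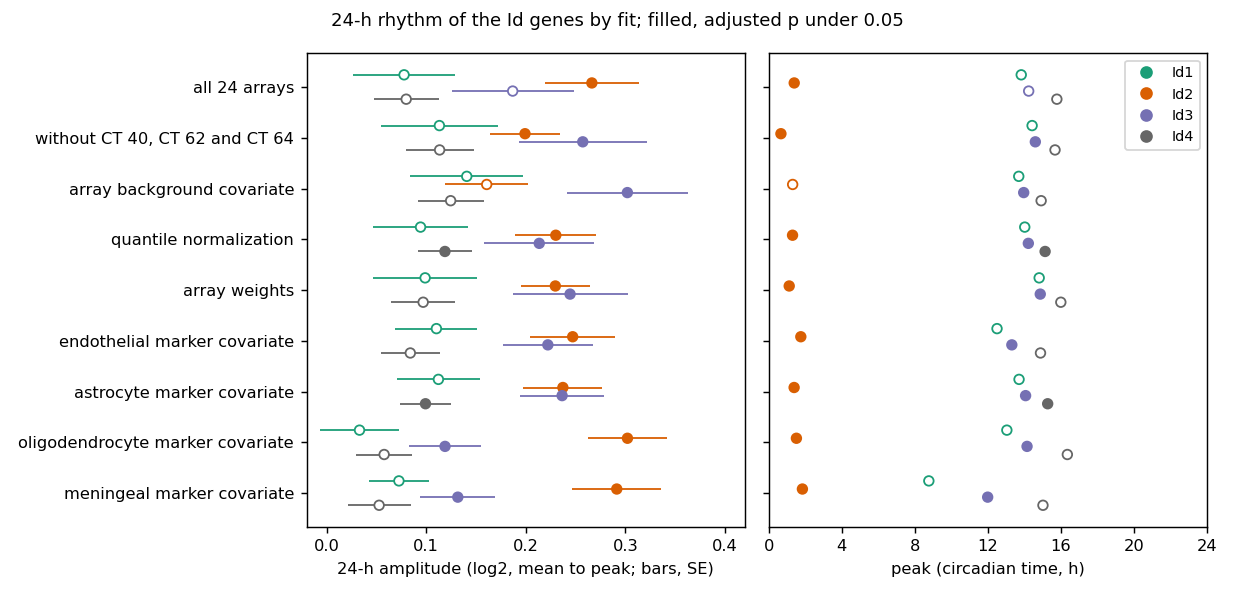
Amplitude of the 24-h fit (left, log2 units, bars are standard errors) and its peak in circadian h (right) for each Id gene under 9 fits (rows); filled points have an adjusted p under 0.05. Id2 stays between 0.662 and 1.84 h in every row, and Id3 between 12.0 and 14.9 h.

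The starts of 3 of these genes, Id2, Id3 and Id4, can be set side by side. Their fitted peaks were at 1.39, 14.2 and 15.8 h, and only Id2 was called on all arrays. A link between sequence and peak time was not tested. The sequences below are RefSeq promoter windows on GRCm38.p6, 250 bases before to 50 after the annotated start, printed 5′ to 3′ on the gene's strand. The window of Id2 is chr12:25096043-25096342 on the minus strand, that of Id3 chr4:136143572-136143871 on the plus strand and that of Id4 chr13:48260866-48261165 on the plus strand. Capitals mark the CCAAT box, read as CCAAT or on the other strand as ATTGG, and the core of the cAMP response element, read as TGACG or on the other strand as CGTCA.
Id2: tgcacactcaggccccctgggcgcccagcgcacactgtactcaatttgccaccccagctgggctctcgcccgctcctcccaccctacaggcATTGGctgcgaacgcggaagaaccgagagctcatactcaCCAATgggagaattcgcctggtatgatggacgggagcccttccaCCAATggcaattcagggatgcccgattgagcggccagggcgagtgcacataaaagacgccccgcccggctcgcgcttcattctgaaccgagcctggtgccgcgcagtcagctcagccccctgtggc
Id3: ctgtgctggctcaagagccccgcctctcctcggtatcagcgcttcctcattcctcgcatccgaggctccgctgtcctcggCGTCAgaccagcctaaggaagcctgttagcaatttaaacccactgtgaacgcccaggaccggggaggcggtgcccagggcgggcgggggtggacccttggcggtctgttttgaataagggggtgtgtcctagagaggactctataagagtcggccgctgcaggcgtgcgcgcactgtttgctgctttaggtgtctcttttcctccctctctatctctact
Id4: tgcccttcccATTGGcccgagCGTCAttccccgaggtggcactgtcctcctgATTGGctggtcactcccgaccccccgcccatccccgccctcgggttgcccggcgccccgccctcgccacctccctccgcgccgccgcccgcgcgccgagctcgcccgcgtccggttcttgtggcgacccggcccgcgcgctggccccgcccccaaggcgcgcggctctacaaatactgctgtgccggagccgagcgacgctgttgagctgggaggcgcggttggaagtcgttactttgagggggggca

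Id2 held 3 CCAAT matches and 0 of TGACG, Id3 held 0 and 1, and Id4 held 2 and 1. Over 32851 windows of the same length, 37.4% held CCAAT and 20.8% TGACG on either strand. The E-box letters CACGTG, bound by CLOCK and its partner and present in 7.15% of windows, and AGGTCA, or on the other strand TGACCT, the element of REV-ERB and ROR receptors present in 16.3%, were in none of the 3. The looser E-box CANNTG, of which CACGTG is one form, was present once in Id2 and in 72.3% of all windows. The palindrome GGCGCC, a GC-rich motif linked to SMAD binding, was present once each in Id2 and Id4 (11.9% of windows), and TATAA, or on the other strand TTATA, once in Id3 (24.9%). These are letters in a short window and not sites of binding, and motifs were chosen after the windows had been seen. Id1 had no entry in the table used.

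The second comparison asked whether levels differed between the second and the first day in darkness. No Id gene passed, and limma called 0 of 13956 genes (0%, with 1216 at an unadjusted p under 0.05). Id1 averaged 7.35 ± 0.15 in the second cycle and 7.17 ± 0.20 in the first (SD, n = 12 each), a difference of 0.18 ± 0.07 that was positive at 10 of 12 circadian times (limma unadjusted p = 0.0119, adjusted p = 0.471). Id3 averaged 7.80 ± 0.23 in the second cycle and 7.63 ± 0.28 in the first (SD), a difference of 0.17 ± 0.08, positive at 8 of 12 times (unadjusted p = 0.0487, adjusted p = 0.572). At that unadjusted threshold 4.63% of all genes were higher in the second cycle. The ranges of the 2 cycles overlapped for both genes. Id4 differed by 0.05 ± 0.05 (adjusted p = 0.783) and Id2 by 0.03 ± 0.07 (adjusted p = 0.919). The median over all genes was 0.00.

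**Figure D4:**
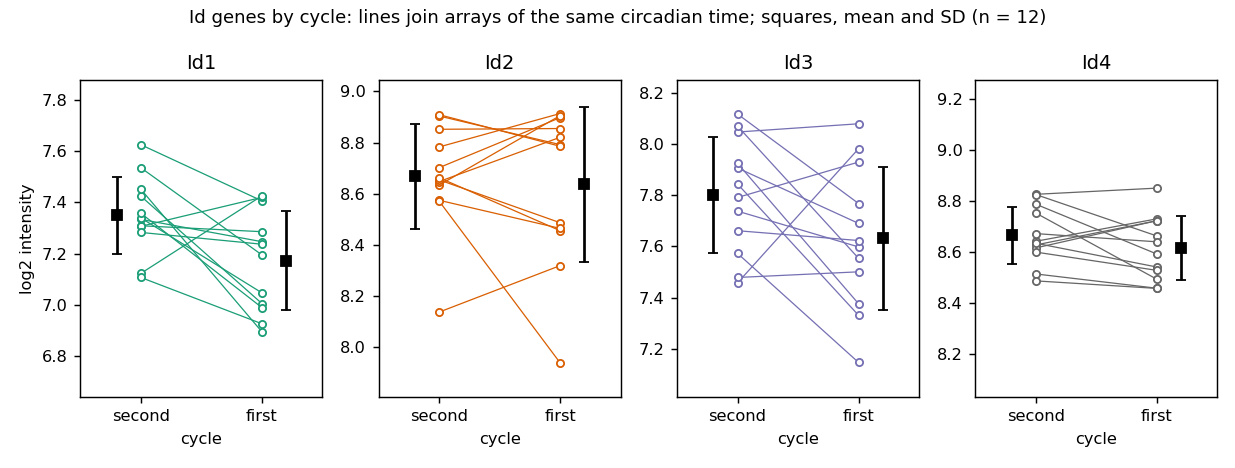
Log2 intensity of each Id gene in the second and the first cycle; open points are arrays, lines join the 2 arrays of the same circadian time, and black squares with bars are mean and SD (n = 12). The Id1 points lie higher in the second cycle for 10 of the 12 lines, while the Id2 lines cross in both directions.

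The amplitude and phase of the rhythm were also compared between the cycles, and again no gene of the array was called (limma, 0% of 13956, with 338 at an unadjusted p under 0.05). The phases of Id2 in the 2 cycles differed by less than their errors, with a fitted amplitude of 0.23 ± 0.07 at 1.69 ± 1.17 h in the second cycle and of 0.31 ± 0.07 at 1.17 ± 0.86 h in the first. The fitted peak of Id1 lay at 9.64 ± 1.48 h in the second cycle and at 17.6 ± 1.39 h in the first (unadjusted p = 0.0123, adjusted p = 0.9999). That of Id3 lay at 12.3 ± 1.58 h in the second cycle and 15.9 ± 1.38 h in the first (adjusted p = 0.9999), and that of Id4 at 17.02 ± 2.26 h in the second cycle and 14.7 ± 2.04 h in the first (adjusted p = 0.9999). A 12-h component was called for 5 genes of the array (0.0358%) and for no Id gene. Its amplitude was 0.08 ± 0.03 for Id4 (unadjusted p = 0.0370, adjusted p = 0.205) and between 0.05 and 0.08 for Id1, Id2 and Id3 (adjusted p from 0.4498 to 0.784).

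Over the 24 arrays, whose values share a pool, an array background and the daily cycle, the levels of Id1, Id3 and Id4 were positively correlated. Pearson r was 0.81 between Id3 and Id1, 0.61 between Id3 and Id4 and 0.57 between Id4 and Id1 (Spearman rho 0.79, 0.61 and 0.52), while Id2 had r of 0.05, -0.09 and -0.11 with Id1, Id3 and Id4 (rho -0.09, -0.23 and -0.31). Over the 21 arrays without CT 40, CT 62 and CT 64 those r of Id2 were -0.11, -0.35 and -0.40, and r among the other 3 genes was between 0.53 and 0.80. These are descriptions of 24 points in time, without a test. Ranked among the 13955 other genes by r, Id3 stood 40th for Id1, whereas Id2 stood 6660th. After the 24-h fit and the array background were taken out, r between Id3 and Id1 was 0.78, and that between Id3 and Id4 was 0.27. Between Id4 and Id1 it was 0.41, and for Id2 with Id1, Id3 and Id4 it was 0.23, 0.17 and -0.09.

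The genes most like each member, by r over the 24 arrays, differed between Id2 and the rest. For Id2 they were Dync2li1 (r = 0.90), Rab1a (0.88), Cryzl1 (0.87), Eif4a2 (0.87) and Kif3a (0.87). Kif3a encodes a kinesin motor, Rab1a a GTPase of membrane traffic and Eif4a2 a translation initiation helicase. Over the 21 arrays without CT 40, CT 62 and CT 64 these values were lower, from 0.69 for Eif4a2 to 0.81 for Kif3a. For Id3 they were Cldn11 (0.92), the tight junction protein of myelin, Gltp (0.91), Gng11 (0.90), Olfml1 (0.90) and Srgn (0.90). For Id1 they were Emp3 (0.91), Pcolce (0.90), a procollagen processing enhancer, Slc6a20a (0.89), Gpr182 (0.89) and the growth factor gene Igf2 (0.89). For Id4 they were Arid5b (0.84), Arap2 (0.80), Rasd1 (0.78), Slc44a1 (0.77) and Slc39a12 (0.77). Among these neighbours of Id4 only Rasd1, which encodes a Ras-like protein, was called in the 24-h test (amplitude 0.52, peak 15.6 h, limma adjusted p = 0.0102). Over the 21 arrays r for the 15 genes named for Id1, Id3 and Id4 was between 0.77 and 0.93.

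Markers of other cell types moved with Id1 and Id3 in the same arrays. The mean of the 7 meningeal fibroblast markers measured, among them collagen genes and Igf2, had r = 0.85 with Id1, 0.80 with Id3, 0.59 with Id4 and 0.10 with Id2. It ran from 6.58 to 7.35 in the second cycle and from 6.27 to 7.35 in the first, and of these markers only Lum was below the filter. The mean of the 10 oligodendrocyte markers measured had r = 0.84 with Id3, 0.72 with Id1, 0.68 with Id4 and 0.22 with Id2. It ran from 8.81 to 9.59 in the second cycle and from 8.53 to 9.62 in the first, with all 10 above the filter. In bulk RNA, fewer cells of a type and less RNA per cell cannot be told apart.

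With the oligodendrocyte mean as a covariate the amplitude was 0.12 for Id3 (adjusted p = 0.0473), 0.03 for Id1 (0.784) and 0.30 for Id2 (6.5e-05). With the meningeal mean as a covariate, a fit added after seeing the data, the change between cycles was 0.06 ± 0.04 for Id1 and 0.03 ± 0.06 for Id3. The amplitude was then 0.13 for Id3, peaking at 12.0 h (adjusted p = 0.0466), and 0.29 for Id2. Of 13956 genes the oligodendrocyte fit called 3364 and the meningeal fit 2026, against 1067 without a covariate. Both amplitudes of Id3 were below its 0.19 without a covariate, so these calls do not mean a larger rhythm. The endothelial mean (11 measured, Kdr below the filter) had r of 0.57 with Id1 and 0.54 with Id3 and an amplitude of 0.03 ± 0.02. With Id1 and Id3, r was 0.66 and 0.61 for the pericyte and smooth muscle mean and 0.58 and 0.67 for microglia. It was 0.51 and 0.63 for oligodendrocyte precursors, -0.18 and -0.24 for ependymal and tanycyte markers and -0.32 and -0.31 for choroid plexus. The astrocyte mean (12 measured, all above the filter) had r between 0.54 and 0.56 with all 4 Id genes. It was lowest at CT 40 and CT 62 (-0.43 and -0.19 from its mean), which are also the lowest arrays of Id2. For the marker means r was not taken without CT 40, CT 62 and CT 64. Of the 9 neuron markers 4 were called (7.65% of all genes), with peaks between 1.77 and 3.07 h, a count of 0 with the array background covariate and of 1 without CT 40, CT 62 and CT 64. Their mean had r of 0.60 with Id2 and between -0.30 and -0.19 with the others. The part of tissue makeup in the courses of Id1, Id3 and Id4 was not tested beyond these covariate fits.

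**Figure D5:**
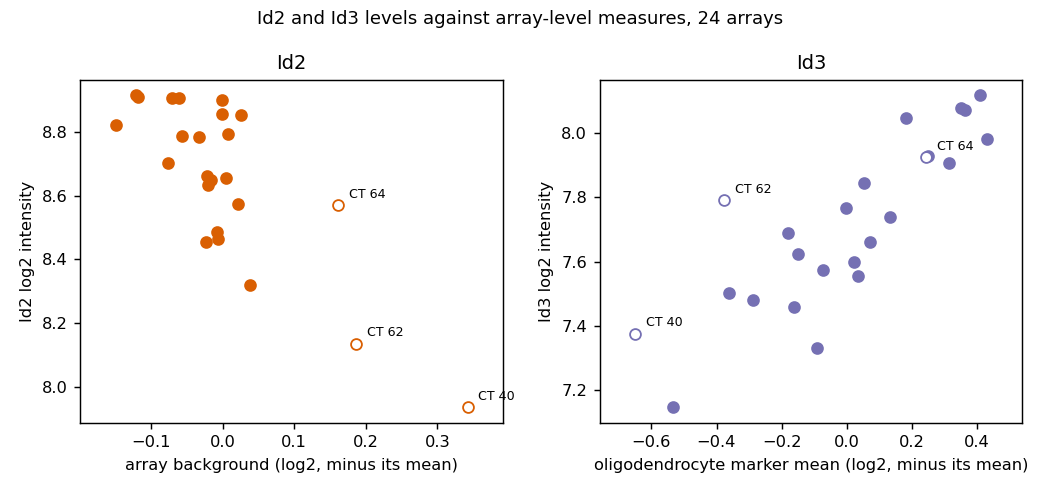
Left, log2 intensity of Id2 (y axis) against the array background in log2 units minus its mean (x axis); right, log2 intensity of Id3 against the mean of the oligodendrocyte markers in log2 units minus its mean; each point is 1 of 24 arrays, and open points are labelled by CT. Id2 is lowest at CT 40 and CT 62, which have the highest backgrounds, and Id3 is high where the oligodendrocyte mean is high.

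The partners and regulators of Id proteins were then read from lists. Over all genes tested 7.65% were called, and 27.5% had an unadjusted p under 0.05, the shares against which the counts of each list are to be read. Of the E proteins that Id proteins bind, Tcf3, Tcf4 and Tcf12, 0 of 3 were called by limma (1 at an unadjusted p under 0.05). Tcf3 reached 0.09 ± 0.03 at 6.64 h (adjusted p = 0.0754) and Tcf4 reached 0.06 ± 0.04 (adjusted p = 0.435). Their median amplitude was 0.08, beside 0.07 over all genes.

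Of the BMP and related ligands, 18 were measured, 12 passed the filter and 1 was called, close to the share over all genes. That was Bmp8a, with a fitted amplitude of 0.15 ± 0.04, peaking at 16.1 h (limma adjusted p = 0.0222), a call that was lost under the array background covariate (adjusted p = 0.0674). Bmp4, a ligand that induces Id genes, had an amplitude of 0.14 ± 0.08 (adjusted p = 0.385). Of the 10 BMP receptors 0 were called (3 at an unadjusted p under 0.05): Bmpr2, the type II receptor, reached 0.12 ± 0.04 at 0.919 h (adjusted p = 0.0757), and Acvrl1, an endothelial type I receptor, 0.13 ± 0.04 at 13.2 h (adjusted p = 0.0983). Of the 4 SMAD mediators 0 were called (1 unadjusted), with Smad5 at 0.12 ± 0.04 and 0.314 h (adjusted p = 0.115) and Smad4, the shared partner, at 0.04 ± 0.03 (adjusted p = 0.569).

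Among 14 tested BMP inhibitors 0 were called (1 unadjusted). Bambi, a decoy receptor, came closest, with a fitted 0.13 ± 0.04 at 10.7 h (adjusted p = 0.0524), followed by the ubiquitin ligase gene Smurf2 at 0.07 ± 0.03 (adjusted p = 0.226). Of 5 other BMP-SMAD targets tested 0 were called (2 unadjusted), Msx1 and Atoh8 both having fitted peaks at 14.5 and 14.4 h with amplitudes of 0.10 ± 0.04 and 0.11 ± 0.04 (adjusted p = 0.172 and 0.175). Median amplitudes of these 5 lists were between 0.04 and 0.07. No member of any of them passed the comparison between cycles.

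For reference, 10 of 13 clock loop genes tested were called (7.65% of all genes), with a median amplitude of 0.19. Beside the 1.39 ± 0.68 h of Id2, the fitted peak of Nr1d1, which represses Arntl, was at 3.89 ± 0.36 h, that of Per1 at 6.30 h, that of Dbp at 7.29 h and that of Per2 at 9.53 ± 0.28 h. These 4 had the smallest adjusted p among the clock genes, and the differences in peak time were not tested.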

How the data were processed

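The study measured SCN RNA, pooled from 3 mice a time point, amplified and biotin-labelled with NuGen kits per the labels' protocols and hybridised to Affymetrix arrays. The deposited values are log2 intensities of 35556 probe sets, normalised by the authors with RMA (version 1.3.1.187) in Affymetrix Expression Console, per the submitters' processing notes. Background and summarisation settings and the genome build were not given in the sources used here. Probe-level normalisation of this kind brings arrays close together, so a shift shared by most genes may not be seen; the deposited arrays still differed in spread, as given above. Arrays carry no counts, and their number limits the precision.

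Of the probe sets 21789 had 1 gene symbol, 1621 several and 12146 none. For 999 of 19938 genes the probe set with the highest mean was taken from more than 1. Genes with a mean under the 30th percentile (log2 5.52) were left out. Arrays were grouped by the labelled time. With 1 array a time, errors come from the scatter about the fitted cosine, on 21 residual degrees of freedom. limma 3.58.1 was used (lmFit, eBayes, Benjamini-Hochberg over all genes tested) in R 4.3.3, with a cosine and sine of 24 h, then a cycle term, its interaction and 12-h terms, all two-sided. Differences between pairs of members were tested by permutation in Python 3.11.15 with NumPy 2.4.6. Both were tested on simulated data.

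The members, gene lists and pairs were chosen with earlier results of these data known. The rule named the 4 members, up to 4 called genes of each list or the 2 with the smallest p, and the 5 genes most like each member by Pearson r. Bmp4 and the genes of the marker lists named in the text were named outside it, after their values were seen. Alternatives covered the filter, probe sets, normalisation, error model, array background, tissue markers, time trend and single arrays. Promoter windows and names are from RefSeq on GRCm38.p6.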

Additional observations from a re-analysis of the deposited data

How the results depend on the processing

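The 24-h call of Id2 stood in 13 of 15 alternatives and without each single array (amplitude 0.23 to 0.28, highest adjusted p = 0.0109). It was lost with the array background covariate (0.16) and with circadian time as a factor, where the amplitude, taken from the highest and lowest of the 12 means, was 0.31 and no Id gene was called (0). Id3 (0.19 on all arrays) was also called with quantile normalisation (0.21, adjusted p = 0.0442), array weights (0.24), the array background covariate (0.30), without CT 40, CT 62 and CT 64 (0.26) and with endothelial (0.22), astrocyte (0.24) and oligodendrocyte (0.12) marker covariates, and with the meningeal marker covariate, a fit chosen after seeing the data (0.13, adjusted p = 0.0466). Its leave-one-out range was 0.15 to 0.23, called only without CT 40 among the 24 single arrays, and that of Id1 0.05 to 0.10. Id4 passed with quantile normalisation (0.12) and the astrocyte covariate (0.10), and ran from 0.07 to 0.10 without single arrays. With the array background covariate the amplitude was 0.14 for Id1 and 0.12 for Id4, neither called. The number of members called was 3 with quantile normalisation and the astrocyte covariate, 2 with array weights, without CT 40, CT 62 and CT 64 and with the endothelial, oligodendrocyte or meningeal covariate, and 1 to 2 without single arrays. With the array background covariate it was 1, and that gene was Id3 in place of Id2. Over all genes the count of 1067 ran from 704 (without CT 28) to 1440 (without CT 30) without single arrays. In the other cosine fits it ran from 534 (array background covariate) to 3364 (oligodendrocyte covariate), with 99 called with circadian time as a factor. With the endothelial, astrocyte and meningeal covariates it was 1328, 1584 and 2026. The 12-h test, with 5 genes called on all arrays, called 0 (no filter, all probe sets, the array background or a marker covariate, or without CT 40, CT 62 and CT 64) to 8 (50th percentile filter, trended prior), and 0 to 9 without single arrays, with 9 without CT 22 or CT 40. The cycle comparison called 0 genes on all arrays, 4 higher and 1 lower in the second cycle with array weights, and 55 higher and 11 lower with the array background covariate. The difference between cycles of Id2 changed sign with the astrocyte (-0.0156), oligodendrocyte (-0.0206) and meningeal (-0.0254) covariates and ran from -0.0161 to 0.0695 without single arrays, never called. The cycle, interaction and 12-h tests called no Id gene in any fit run. Id3 minus Id1 passed with quantile normalisation (0.12), the array background covariate (0.16) and without CT 40, CT 62 and CT 64 (0.14), and ran from 0.0928 to 0.131 without single arrays. Id3 minus Id4 passed with the array background covariate (0.18). The 3 differences of Id2 passed in every fit run, with amplitudes of 0.31 to 0.47 without single arrays. Causes were not tested. The labels number no replicates, but the cycles share their circadian times: with circadian time as a block the cycle difference was 0.18 for Id1 (adjusted p = 0.365), and no gene was called.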

Other observations

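Further families of bHLH factors were read. Of 6 Hes and Hey genes tested, transcriptional repressors downstream of Notch, limma called 0 (1 at an unadjusted p under 0.05). Heyl reached a fitted amplitude of 0.15 ± 0.04 at 4.64 h (adjusted p = 0.0535) and Hes6 one of 0.07 ± 0.04 (adjusted p = 0.384). Of 19 measured proneural and lineage factors 12 lay below the filter, among them Neurod1 and Neurog2, and limma called 0 of the 7 tested (0 unadjusted). Tal1, a factor of blood and endothelial lineages, had an amplitude of 0.07 ± 0.03 (adjusted p = 0.324) and Hand2 of 0.07 ± 0.04 (adjusted p = 0.364).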
